A study of Rattus norvegicus with 12 samples.

Results

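The interferon-induced antiviral genes examined here were Ifit1, Ifit2, Ifit3, Isg15, Mx1, Mx2, Rsad2, Irf1 and Irf7. They were taken by name: every probe whose gene name in the array files equals one of these symbols was used, which gave 10 probes for 9 of the 26612 gene names on the array. RNA came from collagenase-dispersed cells of the cervix of 12 adult female Sprague Dawley rats, 3 in each of 4 groups, and each rat was read on an Agilent array of its own, labelled in 1 colour. Nonpregnant (NP) rats were in proestrus, and pregnant rats were studied on day 21 postbreeding (D21), usually the last day before birth. Whole cervix came from NP rats 8, 9 and 10 and from D21 rats 5, 6 and 7. The Mφ-depleted cervix of NP rats 5, 6 and 7 and of D21 rats 1, 2 and 4 was passed over magnetic beads after incubation with ED1, an antibody to a Mφ antigen. Only the depleted suspensions went through the antibody and bead steps, so removal of Mφs and these steps cannot be told apart.

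Interferons are secreted proteins, and those of type I are released by cells that sense viral nucleic acid. Type I interferons bind the receptor of Ifnar1 and Ifnar2, interferon gamma binds Ifngr1 and Ifngr2, and JAK kinases then activate transcription factors that bind interferon-stimulated response elements or gamma-activated sites in target promoters. The targets described here include effectors that block viral RNA or replication (the Ifit genes, the Mx GTPases and viperin, encoded by Rsad2), the ubiquitin-like modifier Isg15, and the transcription factors Irf1 and Irf7, which feed back on interferon production. Nearly every nucleated cell can express these genes, and Mφs are among the cells that respond to interferon.

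The promoter windows are shown because they hold the elements through which these genes are known to respond. RefSeq promoters (GRCr8) were matched for 5 of the 9 genes (Irf1, Irf7, Ifit3, Mx1 and Rsad2), and the 250 bases before the start of transcription were searched. The interferon-stimulated response element was taken as GAAA and a second GAAA 2 bases apart, or TTTC and TTTC on the other strand, and the gamma-activated site as TTCNNNGAA, which reads the same on both strands. Each window below is 30 bases, read 5′ to 3′ on the strand of the gene, with the match in capitals.
Ifit3: tttaagtctgTTTCAGTTTCtagtttccac
Irf7: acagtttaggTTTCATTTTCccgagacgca
Rsad2: ctggttcaacTTTCATTTTCagaaaacaga
Irf1: acagcctgatTTCCCCGAAatgatgaggcg
The Ifit3 window lies at chr1:241527272-241527301 on the plus strand, with the response element at bases -44 to -35 from the start. The Irf7 window lies at chr1:205800073-205800102 on the minus strand, with the element at -69 to -60, and the Rsad2 window at chr6:48788248-48788277 on the minus strand, with the element at -147 to -138. The match of Irf1 was to the gamma-activated site, at -142 to -134, in a window at chr10:38417783-38417812 on the plus strand. No match overlapped another. Thus 3 of the 5 promoters held the response element, against 3.29% of the promoters of 27457 genes, and 1 of the 5 held the gamma-activated site, against 7.52%. Among 59 matched promoters of other interferon-induced genes, 54.2% held the response element. A match is a description of these letters and was not tested for binding. No match of either motif was found in the window of Mx1.

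Signals are given as log2 of the processed intensity over the 75th percentile of the array, so that 0 is the 75th percentile and each unit is a 2-fold step. Of the 9 genes, 7 (all but Ifit1 and Rsad2) were well above background on all 12 arrays by the rating of the scanner software. No array rated Ifit1 as well above background, and it was not tested. Rsad2 was well above background on 8 arrays: all 3 of whole D21 cervix, rat 10 of whole NP cervix, rats 5 and 6 of depleted NP cervix and rats 1 and 2 of depleted D21 cervix. Testing required this rating in all 3 rats of either group, and a gene was called at p below 0.01 in limma if it also changed 2-fold or more. Between 44.9% and 61.8% of all probes were well above background on an array. The Mφ marker list, 15 genes, averaged 1.45 to 1.56 in whole D21 cervix and 0.82 to 1.40 in whole NP cervix, against -3.37 to -2.65 and -3.70 to -3.27 after depletion. The defining Mφ marker Adgre1 was at background on all 6 depleted arrays. Among the markers tested with depletion (15 in D21 and 13 in NP rats), Cd14 and Cd68, the gene of the antigen that ED1 binds, were not called, and Cd68 differed by -0.14 in D21 and 0.54 in NP rats, whole over depleted.

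The Ifit genes encode RNA-binding proteins with tetratricopeptide repeats, and lie next to each other in the genome: the Ifit2 and Ifit3 probes are 10.7 kb apart on chromosome 1 (rn4, chr1:238565078-238565137 and chr1:238575730-238575789). Ifit2 was at -0.49, -0.81 and -0.50 in whole NP cervix (rats 8, 9 and 10) and at -0.88, -1.05 and -0.82 in whole D21 cervix (rats 5, 6 and 7). After depletion it was at -2.08, -2.05 and -1.93 in D21 cervix (rats 1, 2 and 4) and at -1.68, 1.87 and -2.47 in NP cervix (rats 5, 6 and 7). The D21 groups did not overlap, and within NP depleted cervix rat 6 stood 3.94 above the mean of the other rats, a 15.4-fold distance. Ifit3 was at -0.71, -2.13 and -0.07 in whole NP cervix, -3.32, -0.46 and -2.32 in depleted NP cervix, -1.14, -1.001 and -1.37 in whole D21 cervix and -3.42, -2.74 and -3.34 in depleted D21 cervix. Every whole D21 rat was above every depleted D21 rat, and the NP groups overlapped.

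Isg15 encodes a ubiquitin-like protein that is attached to other proteins or secreted (rn4, chr5:173034674-173034733). It was at 2.67, 1.44 and 2.97 in whole NP cervix, 0.53, 2.84 and 1.63 in depleted NP cervix, 2.23, 1.85 and 1.78 in whole D21 cervix and 1.11, 1.81 and 0.54 in depleted D21 cervix. Each pair of groups overlapped. The whole D21 rats lay within 0.45 of each other, and the depleted NP rats spread over 2.31.

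Mx1 and Mx2 encode dynamin-like GTPases that act against RNA viruses, Mx1 in the nucleus and Mx2 in the cytoplasm in the rat (rn4, chr11:37438580-37438639 and chr11:37572657-37572716). Mx1 was at 1.55, 0.00 and 2.24 in whole NP cervix, -0.97, 0.66 and -0.31 in depleted NP cervix, 0.46, 0.52 and 0.26 in whole D21 cervix and 0.74, 0.47 and -0.47 in depleted D21 cervix. Rats 8 and 10 of whole NP cervix were above all other rats of the study. Mx2 was at 2.80, 2.21 and 2.96 in whole NP cervix, 1.96, 2.61 and 2.92 in depleted NP cervix, 1.97, 2.51 and 2.23 in whole D21 cervix and 2.93, 2.92 and 2.64 in depleted D21 cervix. Its whole range over 12 rats was the narrowest of the tested genes, and only the D21 groups did not overlap, with the depleted rats higher.

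Rsad2 encodes viperin, an enzyme that makes a chain-terminating nucleotide (rn4, chr6:44100787-44100846). Its values on arrays where it was well above background were -2.36 in rat 10 of whole NP cervix, -2.93 and -0.29 in rats 5 and 6 of depleted NP cervix, -1.92, -2.23 and -2.82 in whole D21 cervix, and -1.62 in both rats 1 and 2 of depleted D21 cervix. It was the only gene of the 8 detected that could not be tested between the NP groups or between the depleted groups.

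Irf1 encodes a transcription factor induced mainly by interferon gamma and by inflammatory signals, and Irf7 one that amplifies type I interferon production. Irf1 had a pair of probes, and the brighter (rn4, chr10:39227520-39227579) was at 0.65, 0.94 and 0.94 in whole NP cervix and 1.51, 0.85 and 1.05 in whole D21 cervix. After depletion it was at 1.90, 3.89 and 1.84 in NP cervix and 3.38, 3.18 and 2.49 in D21 cervix. Each depleted rat was above each whole rat. Irf7 (rn4, chr1:201456889-201456948) was at 1.71, 0.77 and 2.20 in whole NP cervix, -0.30, 1.08 and 0.90 in depleted NP cervix, 1.88, 1.82 and 1.63 in whole D21 cervix and 1.20, 1.39 and 0.69 in depleted D21 cervix. The D21 groups did not overlap for Irf7, with the whole rats higher, and the NP groups did.

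**Figure D1:**
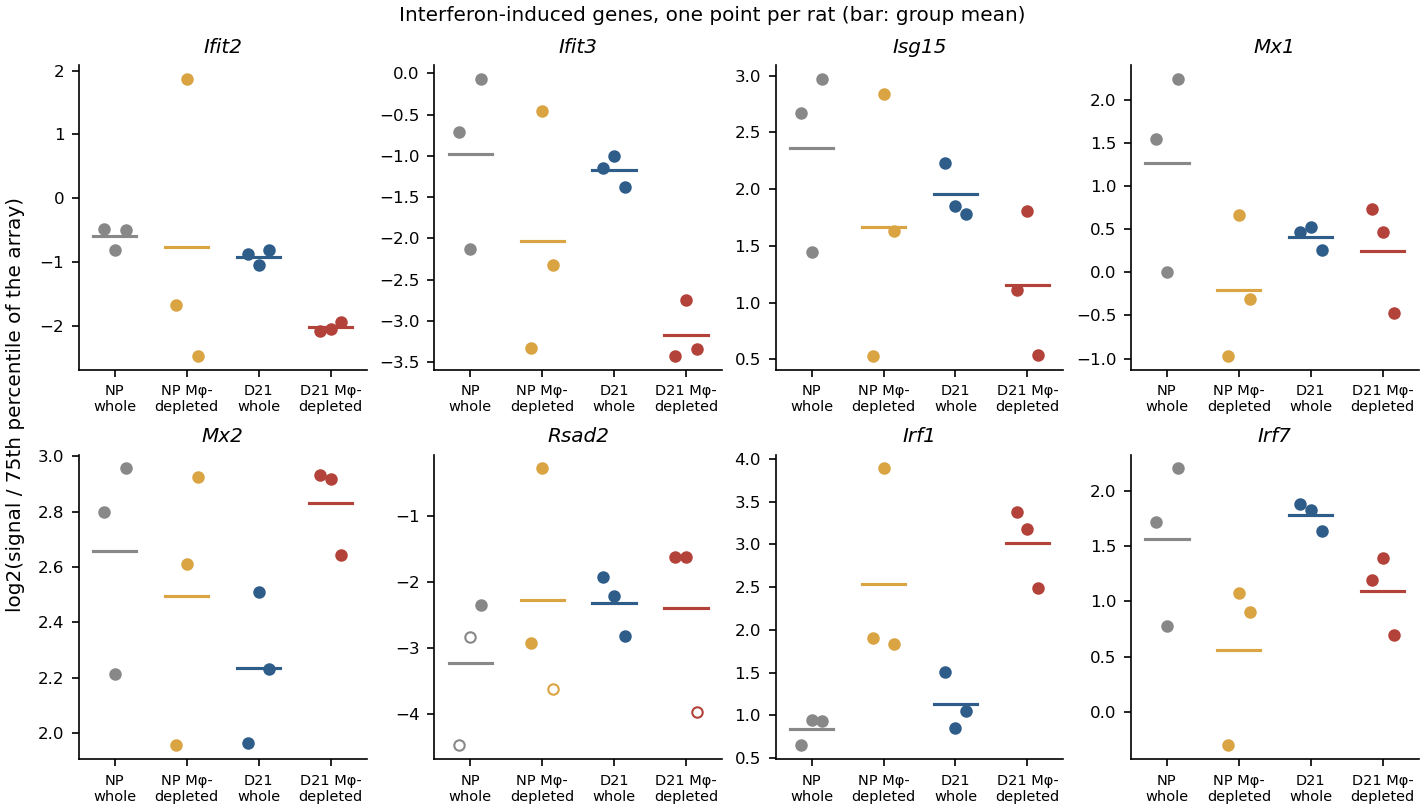
Signal of 8 interferon-induced genes in each rat, as log2 of intensity over the 75th percentile of the array, by group. Each point is 1 rat, bars are group means, and open points were not well above background. All depleted rats lie above all whole rats for Irf1, and 1 depleted NP rat, rat 6, is far above the others of its group for Ifit2.

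The first comparison asked whether these genes differ between the cervix shortly before birth and the nonpregnant cervix. In whole cervix, none of the 8 tested genes was called between D21 and NP rats, where 8.48% of the 14062 genes tested were called by the same rule in limma. None reached an unadjusted p below 0.05 either, which 22.6% of all genes did, and none was called by the methods' t-test. Log2 fold changes, D21 over NP, ran from -0.85 for Mx1 to 0.90 for Rsad2, with a median of -0.26 beside -0.08 over all genes. By the brightest probe of each gene, Ifit2 was the one gene whose groups did not overlap, with D21 lower by 0.32 on the log2 scale, where 44.3% of all genes did not overlap. The 95% confidence intervals of the fits still allow a change of 2-fold or more for all 8 genes. All 4 groups share 1 estimate of the spread in these fits. For Ifit2 the SD was 0.12 in whole D21 and 0.18 in whole NP cervix, against 2.31 in depleted NP cervix. The Ifit2 interval thus draws on spread from outside this comparison. Without depleted NP rat 6 the Ifit2 change stayed at -0.32 (adjusted p = 0.465 from limma). For Irf7 the interval of the log2 change ran from -0.71 to 1.14, for Mx2 from -1.08 to 0.23, and for Mx1 from -2.08 to 0.38.

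In Mφ-depleted cervix, none of the 7 tested genes was called between D21 and NP rats, where 7.53% of 13406 genes were, and none had an unadjusted p below 0.05 (21.7% of all genes). No gene had groups without overlap, beside 17.1% of all genes. The log2 changes ran from -1.26 for Ifit2 to 0.54 for Irf7. Without rat 6 of depleted NP cervix, Irf1 was called on its brighter probe as higher in D21 (1.15, adjusted p = 0.0839 from limma). Without that rat 7.38% of all genes were called. With all rats, the dimmer Irf1 probe changed by -0.29 (adjusted p = 0.757 from limma), against 0.47 on the brighter. The dimmer probe was not tested without that rat. That rat was singled out by the values of these same genes, as described below.

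The other comparisons set whole against Mφ-depleted cervix. In such bulk RNA, fewer cells of a type and less RNA of a gene per cell cannot be told apart. In D21 rats, Irf1 was the single gene called of 8 tested, where 17.8% of 14259 genes were called, and it was lower in whole than in depleted cervix by 1.88 on the log2 scale (SE 0.48, 3.68-fold, adjusted p = 0.0220 from limma). Ifit3 was higher in whole D21 cervix by 2.00 (SE 0.66, 3.99-fold, adjusted p = 0.0495 from limma), which passed an adjusted p of 0.05 but not the call rule. By the adjusted p alone, 2 of 8 genes passed, beside 22.4% of all genes. The methods' t-test called Ifit2 (1.11, adjusted p = 0.0842) and Ifit3 (2.00, adjusted p = 0.120) besides Irf1. That test called 391 genes as higher and 258 as lower of 14259. For Ifit2 the SD was 0.12 in whole and 0.08 in depleted D21 cervix. Its limma fit also draws on the SD of 2.31 in depleted NP cervix. Ifit2, Ifit3 and Irf7 were above in every whole rat and Irf1 and Mx2 below, so that 5 of 8 genes had groups without overlap, beside 44.5% of all genes. The median change of the 8 genes was 0.43, beside -0.06 over all genes, and 5.04 over the Mφ markers.

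In NP rats, Irf1 was again the single gene called, of 7 tested, where 24.4% of 13418 genes were called. It was lower in whole cervix by 1.70 on the log2 scale (SE 0.48, 3.25-fold, adjusted p = 0.0195 from limma). Mx1 was 1.47 higher (2.76-fold, adjusted p = 0.0653) and Irf7 1.00 higher (2.01-fold, adjusted p = 0.0879) in whole NP cervix in the limma fit, and neither was called. The changes of Isg15 and Ifit3 were 0.69 and 1.06, with intervals that include 0. Irf1 was also the single gene without overlap, beside 47.0% of all genes. The median of the 7 genes was 0.69, beside -0.04 over all genes and 5.13 over the Mφ markers. All 7 genes tested in both NP and D21 rats differed between whole and depleted cervix by 2.00 log2 units or less. Fibroblast and smooth muscle markers moved with the Mφ markers in NP rats, where 9 of 10 and 10 of 10 were higher in whole cervix (medians 4.00 and 4.50), against 2 of 10 and 7 of 10 in D21 rats, and their part in the values of these genes was not tested.

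**Figure D2:**
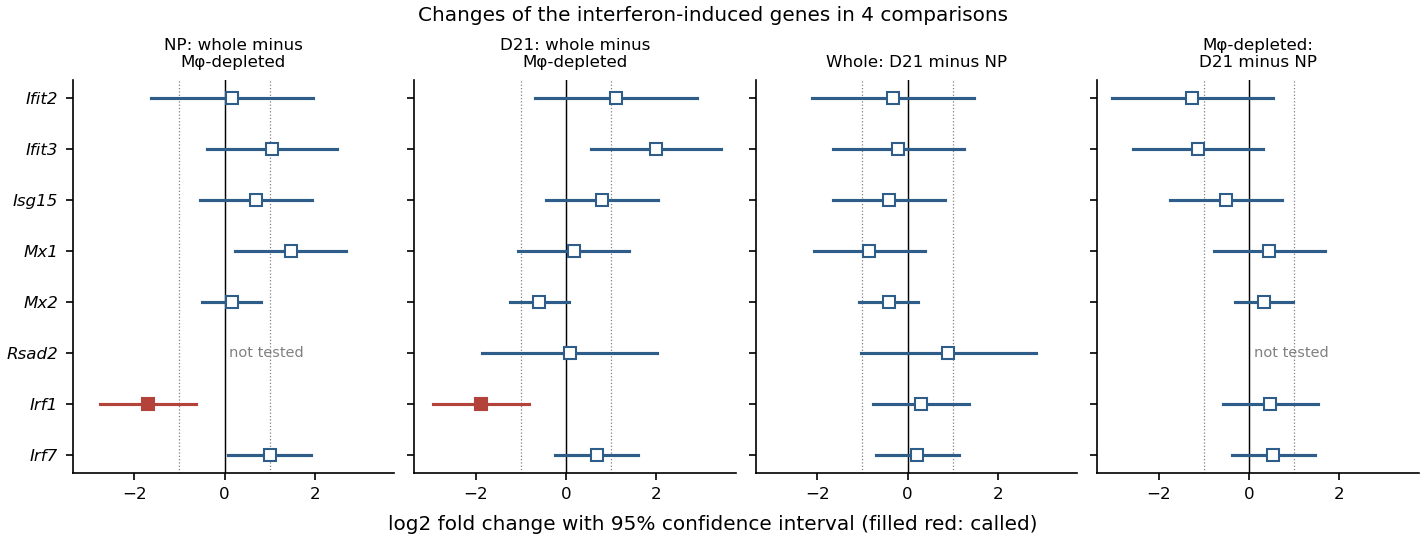
Log2 fold changes of the 8 tested genes in 4 comparisons, with 95% confidence intervals from limma on 12 arrays. Dotted lines mark 2-fold, and filled red squares are called. Irf1 is called as lower in whole than in depleted cervix in both NP and D21 rats (-1.70 and -1.88), and Rsad2 could not be tested in 2 of the comparisons.

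The size of the Irf1 change differed between its probes. The dimmer probe (rn4, chr10:39224461-39224695, spanning 235 bases of the genome) was at -1.28, -0.95 and -0.55 in whole NP cervix, 0.10, 1.67 and -0.40 in depleted NP cervix, 0.05, -0.42 and -0.36 in whole D21 cervix and 0.13, -0.40 and 0.77 in depleted D21 cervix. It was lower in whole NP cervix by 1.38 (adjusted p = 0.0465 from limma) and in whole D21 cervix by 0.41 (adjusted p = 0.556 from limma), neither of which was called. The D21 groups overlapped on this probe and the NP groups did not. In whole cervix every D21 rat was above every NP rat on this probe, by 0.68 on average (adjusted p = 0.427 from limma).

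The change of Irf1 was set beside the immediate-early genes, which many cells induce within minutes of handling, and beside scan day and slide. Immediate-early genes were lower in whole cervix for 10 of 11 tested genes in D21 rats (median -3.61) and 8 of 9 in NP rats (median -2.98), and 14 of the 15 listed were on the array. The mean of the list lay between -0.997 and -0.84 in whole D21 and between -1.40 and -1.38 in whole NP cervix, and between 2.38 and 2.73 and between 1.05 and 1.74 after depletion. Their part in the Irf1 change was not tested. The 6 whole arrays were scanned on 1 day together with 1 depleted array of each kind, and the 4 other depleted arrays on earlier days. Among the arrays of that day, the difference in Irf1, whole minus depleted, was -1.35 in D21 rats (3 arrays against 1) and -0.996 in NP rats (3 against 1). With scan day as a block in limma the difference was -1.25 (adjusted p = 0.200) and -1.10 (adjusted p = 0.176), and with slide as a block -1.39 (adjusted p = 0.679) and -1.15 (adjusted p = 0.234), so that neither was called. The NP call was also lost in limma without whole NP rat 8 (-1.60), 9 (-1.75) or 10 (-1.75), with adjusted p = 0.0404 to 0.0674, and the D21 call without depleted rat 1 (-1.70, adjusted p = 0.0875) or whole rat 6 (-1.74, adjusted p = 0.0764). Without whole NP rat 9, Irf7 (1.40, adjusted p = 0.0261) and Mx1 (2.10, adjusted p = 0.00921) were called instead, as higher in whole NP cervix, in limma. Without rat 6 of depleted NP cervix the NP change of Irf1 shrank to -1.03 and was still called (adjusted p = 0.0347 from limma).

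An interaction term tested whether the change with depletion differed between pregnant and nonpregnant rats. None of the 8 genes was called, where 7.42% of 14570 genes were in limma, and none had an unadjusted p below 0.05 (18.7% of all genes). The estimates, D21 minus NP, ran from -1.30 for Mx1 (95% confidence interval -3.05 to 0.45) to 1.03 for Rsad2 (-1.74 to 3.79). That of Irf1 was -0.18 (-1.69 to 1.33) on its brighter probe and 0.97 (-0.53 to 2.48) on its dimmer probe, neither of them called.

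Rat 6 of Mφ-depleted NP cervix stood apart from rats 5 and 7 for most of these genes. It was the highest of its group for 7 of 8 genes (all but Mx2), with a median distance of 1.89 log2 units from the mean of the other rats, where over 14492 genes it was highest for 34.65% with a median of -0.02. For 6 of the 8 genes it was more than 1 unit above, which held for 7.41% of all genes. The distance was 2.99 for Rsad2, 2.37 for Ifit3, 2.02 for Irf1, 1.76 for Isg15 and 1.30 for Mx1. Rsad2 was not well above background in rat 7, so its distance rests in part on a background value. Among 51 other interferon-induced genes it was more than 1 unit above for 23.53%, among them Cmpk2 (2.86), a neighbour of Rsad2 in mammalian genomes, Oasl (1.90), Herc6 (1.79) and Gbp5 (1.66). In that list rat 7 was more than 1 unit above for 21.57%, beside 13.32% of all genes in that rat. Rats 5 and 6 of this group shared a slide and a scan day, and 61.8% and 60.9% of their probes were well above background.

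Without that rat, whole NP cervix was higher than depleted for Ifit2 by 1.48 (adjusted p = 0.00291), Ifit3 by 1.85 (adjusted p = 0.0286) and Mx1 by 1.90 (adjusted p = 0.0356), and lower for Irf1, in limma. These were 4 called genes of 7 tested, beside 22.1% of 13502 genes called without it. That rat was singled out by its high values of these same genes, so leaving it out favours such calls. The counts without it, in NP and in D21 rats, are a description and not a test against the share over all genes. In D21 rats, where no array was removed but the shared estimate of the spread fell, Ifit2 (1.11, adjusted p = 0.0139 from limma), Ifit3 and Irf1 were then called, 3 of 8, beside 17.6% of all genes. Ifit3 was also called in D21 rats without depleted NP rat 5 or whole NP rat 9 or 10. The adjusted p of Ifit2 in D21 rats ranged from 0.0139 to 0.806 over the alternatives in limma and the methods' t-test.

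**Figure D3:**
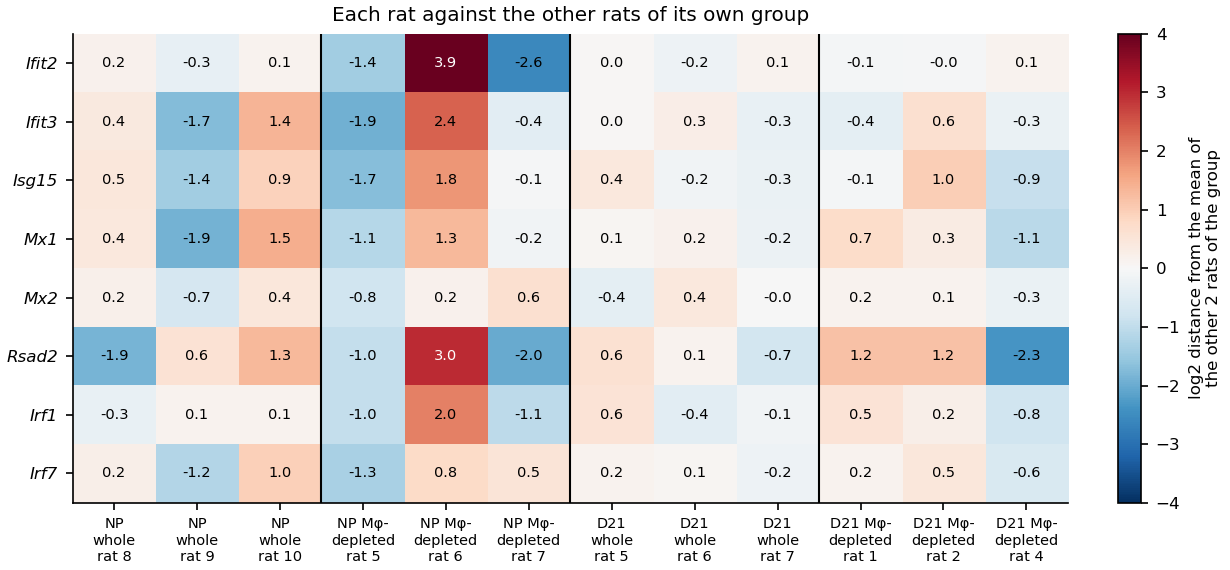
Distance of each rat from the mean of the other rats of its own group, in log2 units, for 8 genes (rows) and 12 rats (columns). Red is higher and blue lower than the rest of the group. Rat 6 of depleted NP cervix is red for most genes, and in whole NP cervix rat 9 is low and rat 10 high for Ifit3, Isg15, Mx1 and Irf7.

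The genes also varied together among rats of the same group. In whole NP cervix, rat 10 was highest for 6 of 8 genes and rat 9 lowest for 6 of 8, where over all genes these shares were 26.12% and 39.66%. Whole D21 rats differed little, and none was more than 1 unit from the others for any of the 8 genes. The 3 whole D21 arrays shared a slide with whole NP rat 10, and whole NP rats 8 and 9 were on another slide. For rat 10 against rats 8 and 9, and for the spread of D21 against NP rats, rat and slide cannot be told apart. Over the 12 arrays, Pearson's r of the deviations from the group means was above 0 for all 28 pairs of the 8 genes, with a median of 0.65, beside 0.003 over all pairs of genes. These arrays share the platform and 8 residual degrees of freedom, and the correlations are a description. Rsad2 entered these pairs and counts with all its values, also those from arrays where it was not well above background. Isg15 and Ifit3 had the highest value, 0.94, and Ifit2 and Mx2 the lowest, 0.04. Leaving out rat 6 of depleted NP cervix changed this: the median fell to 0.27 and 19 of 28 pairs were above 0. All pairs of Ifit2 were lower without it, among them those with Irf1 (from 0.87 to -0.07), Isg15 (from 0.61 to -0.20) and Ifit3 (from 0.72 to -0.08), and the pair of Irf1 and Ifit3 went from 0.65 to -0.04. The 6 pairs among Irf7, Isg15, Ifit3 and Mx1, chosen after their values were seen, were between 0.86 and 0.95 without that rat and between 0.86 and 0.94 with it.

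Of 10929 genes well above background on all arrays, those most like the mean profile of the tested interferon-induced genes over 12 arrays were Ncf4 (r = 0.93), Tlr2 (0.91), RGD1563091 (0.91), BC090003 (0.85), Cyba (0.85), Slc43a2 (0.84), Sod2 (0.83) and C1h19orf12 (0.82). Ncf4 and Cyba encode subunits of the phagocyte NADPH oxidase, Tlr2 a receptor for bacterial lipopeptides and Sod2 the mitochondrial superoxide dismutase. None of these 8 genes was on the interferon lists, and without rat 6 of depleted NP cervix their r was between 0.78 and 0.90. Tlr2 was at 1.63 in the highest of the depleted NP rats, -1.31 in the middle one and -1.82 in the lowest.

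Upstream of these genes, the interferon ligands were at or near background. Of 10 ligands listed, 5 were on the array. Ifna5, Ifnb1, Ifnk and Ifng were not well above background on any of the 12 arrays, and Ifna4 was so on 5, so that none was tested. Among 5 receptor genes on the array, Ifnar1, Ifngr1, Ifngr2 and Il10rb were tested. Ifnar1, a chain of the type I receptor, was higher in whole D21 cervix by 1.04 (SE 0.25, adjusted p = 0.0167 from limma), with whole rats between -2.09 and -1.98 and depleted rats between -3.33 and -2.83. It was 0.90 higher in whole NP cervix (adjusted p = 0.0168 from limma), below the 2-fold limit. With slide as a block the D21 value turned to -0.18, and the call was also lost without depleted D21 rat 1, by the methods' t-test, with normexp and with quantile normalization. Ifngr1 and Ifngr2, the chains of the interferon gamma receptor, were not called in any comparison, and their log2 changes with depletion lay between -0.57 and -0.05.

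In the signalling chain, 8 of 10 listed genes were tested. Irf3, a latent factor activated downstream of viral RNA and DNA sensors, was lower in whole cervix by 1.58 in D21 rats (adjusted p = 0.00180) and by 1.86 in NP rats (adjusted p = 0.000158) in limma, with no overlap between the groups. The kinase Jak1 was higher in whole D21 cervix by 1.33 (adjusted p = 0.0224 from limma), a call lost with slide or scan day as a block, by the methods' t-test, and without depleted D21 rat 2. The Irf3 call was lost with slide as a block in D21 rats and held under all 24 alternatives in NP rats. Stat2, a transcription factor of the type I pathway, differed by -0.23 in D21 and -0.0088 in NP rats, whole over depleted, and was not called. Among the sensors of viral nucleic acid, 11 of 15 were tested. The endosomal RNA receptor Tlr7 was at least 8.75-fold higher in whole D21 and at least 9.15-fold higher in whole NP cervix (adjusted p = 0.00156 and 0.000310 from limma), since every depleted array had it at background. The lower bounds are set by the dimmest probes rated well above background on the depleted arrays. In NP rats, Ddx58, which encodes RIG-I, and Tlr3 were higher in whole cervix by 1.79 and 1.70, and the kinase Ikbke and the adaptor Traf3 lower by 1.84 and 1.19. The Ddx58 and Ikbke calls were lost with slide or scan day as a block and, with that of Tlr3, by the methods' t-test. Normexp also ended the Ddx58 call. The Tlr7 calls were lost with normexp, that of D21 rats also with slide as a block and that of NP rats by the methods' t-test. The Traf3 value shrank to -0.17 with the mean of its probes and was then not called. Between the depleted groups Traf3 changed by -1.27, D21 over NP (adjusted p = 0.00731 from limma). It was 1 of 10 sensors called there, beside 7.53% of all genes, and was called under 21 of 24 alternatives.

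Of the feedback genes, Usp18, which removes Isg15 from proteins and dampens the type I receptor, was higher in whole cervix by 1.53 in D21 rats (SE 0.30, adjusted p = 0.00635) and by 1.54 in NP rats (SE 0.29, adjusted p = 0.00234) in limma. Slide as a block ended both calls, the methods' t-test ended the NP call, and the D21 value was as low as 0.56 among the alternatives. Whole rats lay between -0.22 and 0.53 and depleted rats between -2.03 and -1.04. Socs1 was higher in whole NP cervix by 1.62 and Socs3, induced mainly by interleukin 6 and related cytokines, lower by 1.77, of which the Socs1 call was lost with slide as a block and both by the methods' t-test. Isg20, a ribonuclease counted on the feedback list, was 1.45 higher in D21 than in NP whole cervix (adjusted p = 0.0485 from limma). It was the one gene of 8 on that list called in that comparison. That call was lost with slide as a block, with normexp, and without whole NP rat 8 or whole D21 rat 7. Between the depleted groups Isg20 was 1.17 higher in D21 (adjusted p = 0.111 from limma), with overlap. It was 1 of 7 feedback genes called there, beside 7.53% of all genes, and was called under 4 of 24 alternatives.

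Other interferon-induced genes were set beside all genes, and in D21 rats their count of higher genes lay near the share over all genes. Of the 73 on the list, 60 were on the array. In NP rats, 15 of 50 tested were called as higher in whole cervix and 1 as lower, beside 13.6% and 10.8% of all genes, with a median change of 0.63. In D21 rats, 7 of 50 were higher and 2 lower, beside 10.0% and 7.76% of all genes, with a median of 0.15. Leading genes in NP rats were Ccl5, a chemokine of T cells and Mφs (3.55 higher), Bst2, which encodes tetherin (2.29), and Epsti1 (2.12). In D21 rats they were Epsti1 (2.24), Slfn5 (2.05) and Ccl5 (2.02). The T and NK cell markers, which include cells that make Ccl5, were higher in whole NP cervix for 2 of 4 tested and in whole D21 cervix for 1 of 6, with medians of 2.06 and 1.46, and their part in these counts was not tested. Oas1a, Oas1i and Oas1k, which make the 2-5A activator of ribonuclease L, were higher in whole NP cervix by 1.34 to 1.60. Called as lower in whole than in depleted D21 cervix were the chemokine Cxcl10 (by 2.68) and the GTPase Igtp (by 1.54), and in NP cervix Tor3a (by 1.02). Igtp was called under 14 and Tor3a under 13 of 24 alternatives. Igtp was not called without depleted D21 rat 1 or 2 or whole D21 rat 5 or 7. Tor3a was not called without depleted NP rat 5 or 6 or whole NP rat 8 or 10. Over all 24 alternatives, the smallest change of Igtp was -0.28. With slide as a block, the calls of Cxcl10, Igtp, Epsti1, Slfn5 and Ccl5 in D21 rats and of Bst2, Epsti1 and Tor3a in NP rats were lost, and with scan day as a block all of these but Cxcl10 and Ccl5. By the methods' t-test none of them was called, while Ccl5 in NP rats was called under all 23 alternatives run. Slfn5 was also not called without depleted D21 rat 1 or 2 or whole D21 rat 6 or 7. The D21 count of higher genes was 2 without depleted rat 1, 4 without depleted rat 2, 3 without whole rat 5, and 2 without whole rat 6 or whole rat 7, 1 with normexp background correction and 0 with slide as a block. At most it was 9 without a rat and 8 under the other alternatives. The NP count was between 11 and 19 without any 1 rat, 8 with slide as a block, and 2 by the methods' t-test or 1 after its adjustment.

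Between D21 and NP whole cervix, 2 of 51 such genes were called as lower and none as higher, beside 3.1% and 5.38% of all genes in limma. Isg20, called as higher, was counted on the feedback list and not here. Cxcl9, a chemokine induced by interferon gamma, was at background in every whole D21 rat and at least 3.85-fold lower there than in NP (adjusted p = 0.0238 from limma). Ccl5 was lower in D21 by 1.65 (adjusted p = 0.0750 from limma), at 0.31 to 1.15 in whole NP and -1.33 to -0.80 in whole D21 cervix. Its call was lost with slide as a block and without whole NP rat 9 or 10 or whole D21 rat 5, 6 or 7, and that of Cxcl9 with normexp, with quantile normalization and by the methods' t-test. In the same samples, T and NK cell markers had a median change of -1.17 over 6 tested genes, 2 of them called as lower and 1 as higher, and their part was not tested. Epithelial markers were higher in whole D21 cervix for 7 of 10. Between the depleted groups, 3 of 47 other interferon-induced genes were called as higher in D21 and none as lower, beside 5.47% and 2.07% of all genes. They were Cxcl10 (1.68, adjusted p = 0.106), Ifi27 (1.51, adjusted p = 0.0829) and Uba7 (1.15, adjusted p = 0.0245) in limma. These were called under 7 of 23, 13 of 24 and 19 of 24 alternatives.

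**Figure D4:**
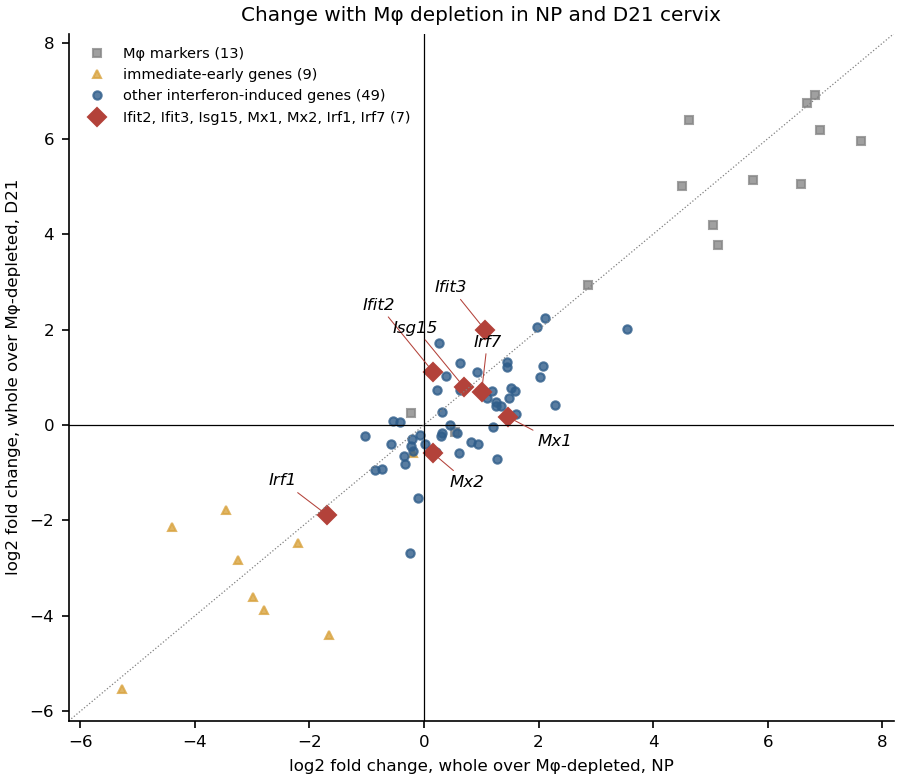
Log2 fold change of whole over Mφ-depleted cervix in NP rats (horizontal) and D21 rats (vertical), 1 point per gene tested in both, with the dotted line at equal change. Most Mφ markers (13 plotted) lie at the upper right and most immediate-early genes (9 plotted) at the lower left, with the 7 named genes and 49 other interferon-induced genes between them and Irf1 at -1.70 and -1.88.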

How the data were processed

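The 9 genes, the lists and the tests were chosen with earlier results of these data known. The authors deposited the scanner intensity of each spot as Feature Extraction 9.5.3.1 wrote it, background-subtracted and not normalized between arrays, and a table of ratio values, intensity over the 75th percentile of the array, which served as an alternative. Spots of a probe were averaged, and control and outlier spots left out (294 to 648 outlier spots an array). Each intensity was put on a log2 scale relative to the upper quartile (75th percentile) of its array. Of 30367 probes, 17328 were named by RefSeq accession and the rest kept the name in the array files. The probe with the highest mean signal stood for a gene.

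Groups came from the labels. Groups were compared in R 4.3.3 with limma 3.58.1 (a linear model of 4 group means over 12 arrays with moderated errors), with Benjamini-Hochberg adjustment over all genes tested. The call rule (p below 0.01 before adjustment, and 2-fold or more) is that of the study's methods, which name Welch's test. Run on the same values, that test is called the methods' t-test. The fit was tested on simulated data. Named besides the 9 genes are the ligands and receptors, the 3 called genes of largest change in each direction and list, and the 8 genes most alike in profile. Genes named outside that rule, the Oas1 genes, Stat2, Cd68, Cd14 and the genes named for rat 6, were chosen after their values were seen. Slides and scan days are those in the array files: 4 slides on 3 days. The 24 alternatives were another test or threshold, background correction by normexp (offset 50), quantile scaling, a percentile taken from commonly detected probes, other background filters, averaging a gene's probes, blocks for scan day or slide, the table of the authors, and leaving out each of 12 rats. Their use on the list counts was added after seeing the data. Groups of 3 rats limit the precision. Python 3.11.15, pandas 2.3.3 and matplotlib 3.10.9 were used for tables and plots.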

Additional observations from a re-analysis of the deposited data

Results flagged for a closer look

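Among the interferon lists, 4 genes changed with Mφ depletion by amounts that differed between D21 and NP rats in the interaction test of limma, at p below 0.01 with a difference of at least 2-fold. They were 1 of 11 sensors of viral nucleic acid and 3 of 51 other interferon-induced genes tested, with none of 4 receptors, 8 signalling and 8 feedback genes, beside 7.42% of all genes, so that the count is near or below the share over all genes. None of the 8 tested genes named at the start was called. Traf3 differed by 1.57 log2 units (SE 0.31, adjusted p = 0.0290 from limma). It was 1.19 lower in whole than in depleted cervix of NP rats and changed by 0.38, not called, in D21 rats. The difference was called under 20 of 22 alternatives, and not with normexp background correction or with the mean of all Traf3 probes.

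The other 3 passed the call rule but not an adjusted p of 0.05 in limma. Cxcl10 differed by -2.43 (adjusted p = 0.121), with -2.68 for D21 and -0.25 for NP rats. Ifi27, a small mitochondrial protein gene, differed by -1.98 (adjusted p = 0.130), with changes of -0.71 and 1.27. Psmb10, an immunoproteasome subunit, differed by -1.33 (adjusted p = 0.0980), with changes of -0.39 and 0.94. They were called under 7 of 21, 6 of 22 and 9 of 22 alternatives. Fibroblast markers also differed in this way for 7 of 10 genes and smooth muscle markers for 6 of 10, each further below whole cervix after depletion in NP than in D21 rats, and their part in these values was not tested.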

How the results depend on the processing

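No paired analysis was possible because the groups compared share no replicate numbers and every array came from a different rat. None of these genes was called between D21 and NP whole cervix, or in the interaction, under any alternative. For whole against depleted D21 cervix, 1 gene was called, against 3 by the methods' t-test and 0 after its adjustment, 2 by the adjusted p of limma, 2 with the percentile over commonly detected probes, 2 with the filter on every array compared, and 0 with normexp, the mean of all probes, slide or scan day as a block. Leaving out a rat gave 0 to 3. For NP cervix, 1 was called, against 0 by the methods' t-test before and after adjustment, 0 with normexp, 0 with a block for slide, 0 with one for scan day, and 0 to 4 without a rat. Between the depleted groups 0 were called, and 0 to 1 without a rat. Of 893 recomputed log2 changes of single genes, 35 turned sign, none of them called (lowest adjusted p = 0.518 from limma and the methods' t-test). With slide as a block these were Irf7 (-0.43 between whole groups, -0.22 with D21 depletion), Mx1 (-0.81, D21 depletion), Mx2 (-0.16, NP depletion), and the interactions of Isg15 (-0.62) and Ifit3 (-0.18). With scan day they were Mx2 (-0.006, NP depletion) and the interaction of Isg15 (-0.0116). With normexp they were Rsad2 (-0.52, D21 depletion) and the interactions of Irf1 (0.20), Isg15 (-0.0369), Ifit3 (-0.0726) and Rsad2 (-0.0373). Quantile normalization turned Rsad2 (-0.14, D21 depletion) and the Irf1 interaction (0.0151), and the mean of all probes the latter (0.40). Leaving out a rat between whole groups gave Irf7 -0.18 to 0.53, Ifit3 -0.78 to 0.25. Leaving out a rat with D21 depletion gave Mx1 -0.19 to 0.41, Rsad2 -0.70 to 0.47. Leaving out a rat with NP depletion gave Ifit2 -0.69 to 1.48, Mx2 -0.11 to 0.38. Leaving out a rat between depleted groups gave Isg15 -1.08 to 0.0723, Ifit2 -2.12 to 0.0543. Leaving out a rat in the interaction gave Irf1 -0.85 to 0.17, Irf7 -0.72 to 0.11, Isg15 -0.48 to 0.67, Ifit2 -0.37 to 1.80. The percentile over commonly detected probes moved the median of all genes from -0.06 to 0.12 for D21 depletion and from 0.02 to -0.14 between the depleted groups. The causes were not tested. Groups of 3 rats, 2 probes for Irf1 and signals of Rsad2 near background limit the precision.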
